A study of Mus musculus with 7 samples.

Results

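The RNA of 10 genes of EF-hand calcium-binding proteins was followed across whole mouse retina: Calb1, Calb2, Pvalb, Scgn, Cabp1, Cabp2, Cabp4, Cabp5, Necab1 and Necab2. They were chosen by name as proteins that mark retinal interneurons or act in their calcium signalling, and all 10 were found among the 25655 gene rows of the count table. The retinas came from wildtype C57BL/6 mice and were collected 2 days after crush of the optic nerve, which cuts the axons of retinal ganglion cells. One group had received AAV2, an adeno-associated viral vector, that overexpressed Tppp3, a tubulin polymerization-promoting protein, and the control group a CMV-control AAV2, so that all retinas were injured and all carried a vector. Of the 7 labelled samples, 3 libraries of each group were analysed. The labels do not say whether each library came from another animal, so the p-values measure the spread between these libraries, which may be in part technical.

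EF-hand proteins bind calcium ions in a helix-loop-helix fold. Some of them mainly buffer calcium, and others change shape on binding it and act on channels, receptors or the release machinery. In the retina their antibodies are classic labels of cell classes: calbindin for horizontal cells, calretinin for amacrine and ganglion cells, secretagogin for cone bipolar cells and CaBP5 for bipolar cells. Not every member is confined to interneurons: the Cabp4 protein acts in the synaptic terminals of photoreceptors, and parvalbumin in the mouse is known from ganglion cells. The comparison asked whether the RNA of any of these genes differed between injured retinas with the Tppp3 vector and those with the control vector.

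Library totals ranged from 10961443 to 16218074 counts in the controls and from 19961359 to 21843892 with Tppp3 AAV2, so depth and group were fully confounded. Tppp3 itself was at 18.7, 22.2 and 28.02 CPM in the controls and at 53.7, 36.5 and 41.8 CPM with the vector, with no overlap. Its log2 fold change of 0.94 ± 0.20 (SE) had an adjusted p of 0.639 over all tested genes in edgeR, so Tppp3 itself did not pass, and 6.92% of tested genes were likewise higher without overlap. CPM here are counts scaled to the effective library size by edgeR's TMM method. Markers of 17 cell classes were read beside the 10 genes. All 8 rod markers, 14 amacrine markers, 10 cone bipolar markers, 4 rod bipolar markers, 7 horizontal cell markers and 10 ganglion cell markers had counts in every library. The summed level of 8 pigment cell markers set libraries apart within both groups: it was 184, 42.8 and 46.2 CPM in control replicates 1, 2 and 3, and 204, 53.4 and 192 CPM in Tppp3 replicates 1, 2 and 3. In whole retina, fewer cells of a type and less RNA per cell cannot be told apart.

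All 10 genes had enough counts to be tested, and none passed. In edgeR's quasi-likelihood test, 0 of 10 were higher or lower at an adjusted p under 0.05, where 2 of 14750 tested genes, or 0.0136%, passed. At an unadjusted p under 0.05 the test gave 1 of the 10, Necab1, against 7.23% of all tested genes. The log2 fold change, Tppp3 AAV2 minus control AAV2, lay between -0.10 and 0.17 for the 10 genes. Its median was 0.0012, beside 0.0030 over all tested genes, with 5 values above and 5 below 0. The 95% interval of the log2 fold change lay within ±0.35 for 7 of the 10 genes, the exceptions being Pvalb, Cabp2 and Necab2.

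**Figure D1:**
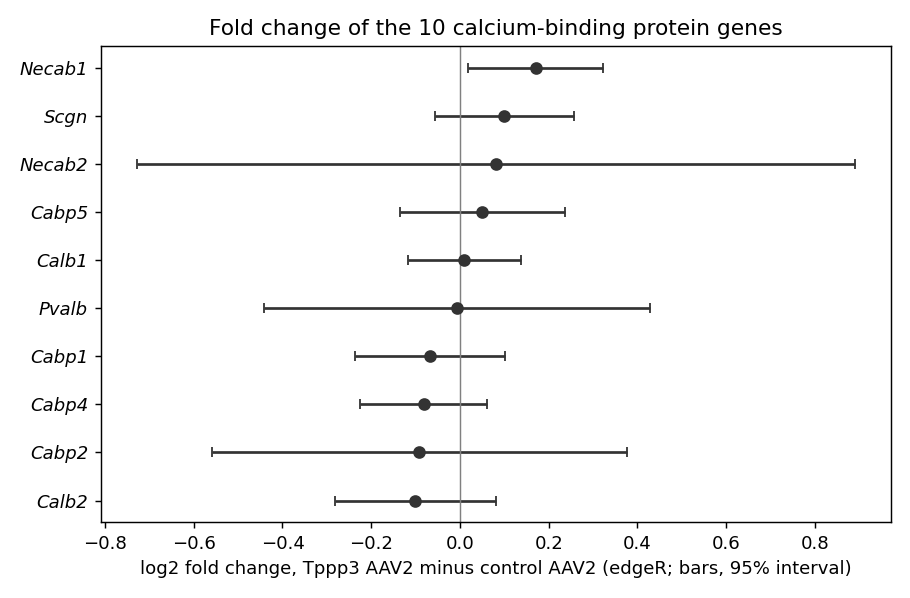
The plot gives the log2 fold change of each of the 10 genes (horizontal axis, Tppp3 AAV2 minus control AAV2, edgeR) with its 95% interval. The interval includes 0 for 9 genes; that of Necab1 runs from 0.019 to 0.32, and that of Necab2 is the widest, from -0.73 to 0.89.

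The members differed in abundance by more than they differed between groups. Per kilobase of exon, the mean of Calb2 was 19.9 times that of Cabp2. The order on this scale was Calb2 (74.7 CPM per kb), Cabp4 (42.4), Cabp5 (42.4), Scgn (28.3), Calb1 (14.03), Necab1 (12.6), Cabp1 (11.8), Necab2 (8.44), Pvalb (4.10) and Cabp2 (3.75). Calb2 stood above Cabp4 in every library, Scgn stood below Cabp5 and above Calb1, and Necab2 stood above Pvalb. The ranges of Calb1 and Necab1 overlapped, as did those of Cabp1 and Necab2, but within each of the 6 libraries Calb1 was above Necab1 and Cabp1 above Necab2. The other neighbours were not ordered beyond their spread: Cabp4 was above Cabp5 in 2 of 6 libraries, Necab1 above Cabp1 in 4 and Pvalb above Cabp2 in 3. With the longest transcript as the length in place of all exons, Cabp5 (60.3 CPM per kb) stood above Cabp4 (44.3), Cabp1 (17.6) above Calb1 (16.1) and Necab1 (13.4), and Cabp2 (4.92) above Pvalb (4.36).

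**Figure D2:**
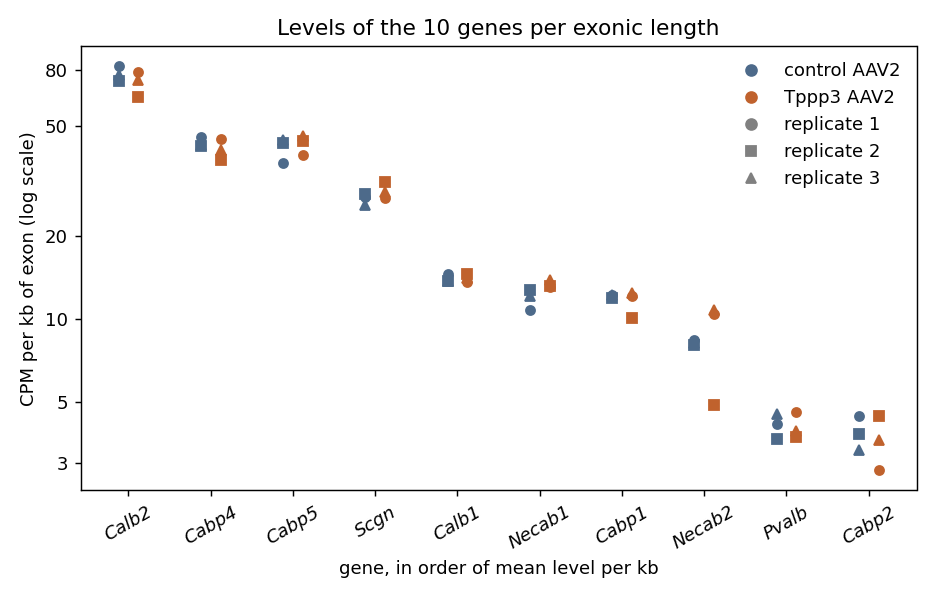
The plot gives each gene's level per kilobase of exon in each library on a log axis, with color for the group and shape for the replicate number. Calb2 leads at 63.6 to 82.5 CPM per kb, and Necab2 has the one library, Tppp3 replicate 2, that lies far from the other 5.

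Among the buffers, Calb1 was the steadiest gene of the set. It encodes calbindin-D28k, a soluble calcium buffer of horizontal cells and of some amacrine and ganglion cells. The controls held 70.5, 66.4 and 66.4 CPM and the Tppp3 libraries 65.7, 70.6 and 68.3 CPM. The groups overlapped fully, and the highest library was 1.07 times the lowest. The means were 67.8 ± 2.32 and 68.2 ± 2.42 CPM (SD, n = 3 per group). The log2 fold change was 0.0099 ± 0.058 (SE; edgeR adjusted p = 0.985), and its 95% interval limits the difference to between 0.922-fold and 1.10-fold.

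Calb2 encodes calretinin, a buffer of starburst and other amacrine cells and of many ganglion cells. Its controls held 144, 127 and 134 CPM and its Tppp3 libraries 137, 111 and 128 CPM. Tppp3 replicate 2 was the lowest of the 6, and the other 5 lay within the range of the controls. The means were 135 ± 8.65 and 126 ± 13.5 CPM (SD, n = 3 per group), with a log2 fold change of -0.10 ± 0.081 (SE; edgeR adjusted p = 0.828). The fold interval of Calb2 was 0.822 to 1.06. Without Tppp3 replicate 1 the log2 fold change was -0.18 (unadjusted p = 0.0457), and without Tppp3 replicate 2 it was -0.019, so that single libraries moved the value.

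Pvalb encodes parvalbumin, a fast buffer found in a subset of mouse ganglion cells and, outside the retina, in fast skeletal muscle. It was near the lower end of the tested range, at 49 to 94 counts per library, where counting error alone is 14.3% at the lowest count. The controls held 4.33, 3.81 and 4.70 CPM and the Tppp3 libraries 4.78, 3.88 and 4.08 CPM. The groups overlapped, and the log2 fold change was -0.0076 ± 0.20 (SE; edgeR adjusted p = 0.996). The fold interval of 0.736 to 1.34 shows how far this depth limits the comparison. Of 5 skeletal muscle markers 3 were detected in every library, and their summed level was 3.32 to 4.77 CPM in the controls and 3.83 to 4.62 CPM with Tppp3 AAV2; the part of muscle RNA in Pvalb was not tested.

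Scgn encodes secretagogin, a calcium sensor with several EF-hands that marks cone bipolar cells. The controls held 44.7, 45.8 and 42.02 CPM and the Tppp3 libraries 44.5, 50.8 and 46.8 CPM. Tppp3 replicates 2 and 3 lay above every control and Tppp3 replicate 1 did not, so the groups overlapped. The means were 44.2 ± 1.94 and 47.4 ± 3.20 CPM (SD, n = 3 per group), and the log2 fold change was 0.10 ± 0.071 (SE; edgeR adjusted p = 0.802). It stayed positive, between 0.047 and 0.14, in all 13 alternative analyses, with an adjusted p of at least 0.764 in each.

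The CaBP proteins are relatives of calmodulin that bind voltage-gated calcium channels and other calmodulin targets. Cabp4 acts with the Cav1.4 channel of photoreceptor terminals, whose pore is encoded by Cacna1f. Its controls held 161, 149 and 151 CPM and its Tppp3 libraries 158, 133 and 144 CPM. Tppp3 replicate 2 was again the lowest library. The means were 154 ± 6.19 and 145 ± 12.5 CPM (SD, n = 3 per group), with a log2 fold change of -0.082 ± 0.065 (SE; edgeR adjusted p = 0.823). Without Tppp3 replicate 1 the log2 fold change of Cabp4 was -0.15 (unadjusted p = 0.0315), and without Tppp3 replicate 2 it was -0.022. Cacna1f itself averaged 501 ± 14.5 and 502 ± 27.3 CPM (SD, n = 3 per group). The 8 rod markers were also lowest in Tppp3 replicate 2, with a summed level of 46841 CPM against 53532 to 60574 CPM in the other 5 libraries. The 6 cone markers were not, with a sum of 1056 CPM there and the lowest, 916 CPM, in Tppp3 replicate 1. The part of the rod or cone level in the Cabp4 values was not tested.

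Cabp5 marks rod bipolar cells and some cone bipolar cells. Its controls held 93.1, 110.1 and 113 CPM and its Tppp3 libraries 99.3, 111 and 116 CPM. The replicates numbered 1 were the low library of each group, and the other 4 lay between 110.1 and 116 CPM. The log2 fold change was 0.050 ± 0.083 (SE; edgeR adjusted p = 0.929). The same 2 libraries had the lowest summed level of the 4 rod bipolar markers, 593 CPM in control replicate 1 and 579.9 CPM in Tppp3 replicate 1 against 616 to 685 CPM in the other 4. Prkca, with a mean of 457 CPM, weighed most in this sum. As log2 CPM minus the mean of the 6 libraries, averaged over the 4 markers, the gap was small. The 2 libraries stood at -0.043 and -0.058, close to -0.033 in Tppp3 replicate 2 and -0.027 in control replicate 3. Whether the share of rod bipolar RNA sets the Cabp5 level was not tested.

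Cabp1, which gives rise to caldendrin and acts on calcium channels and inositol trisphosphate receptors, was even in 5 of the 6 libraries. The controls held 71.2, 69.2 and 71.1 CPM and the Tppp3 libraries 70.6, 58.9 and 72.4 CPM. Tppp3 replicate 2 was at 0.823 times the mean of its 2 group mates. The log2 fold change was -0.068 ± 0.077 (SE; edgeR adjusted p = 0.887), and without that library it was 0.020.

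Cabp2, which slows the inactivation of Cav1.3 channels in hair cells and is also found in bipolar cells, was the other low gene, with 50 to 133 counts per library. The controls held 6.01, 5.16 and 4.52 CPM and the Tppp3 libraries 3.81, 6.00 and 4.89 CPM. The lowest and the highest Tppp3 library enclosed nearly the whole range of the controls. The log2 fold change of Cabp2 was -0.092 ± 0.21 (SE; edgeR adjusted p = 0.955), with a fold interval of 0.679 to 1.30.

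RefSeq start sites of build GRCm38.p6 were given for 6 of the 10 genes (Pvalb, Cabp1, Cabp2, Cabp5, Scgn and Necab2), 9 starts in all, and the 250 bases upstream of each were searched on both strands. TAATCC, the core recognised by the photoreceptor and bipolar homeodomain factors CRX and OTX2, was present at 2 of the 9 starts, 1 of Cabp2 and the one of Cabp5, and in 6.25% of the 32851 windows of the same length from all genes. TATAAA was found at 0 of the 9 starts (12.4% of all windows), GGGCGG at 2 (32.7%), CANNTG at 3 (66.2%) and TGACGTCA at 0 (1.55%). The windows with TAATCC are shown because they share these letters while the levels of Cabp2 and Cabp5 did not follow each other over the 6 libraries (Pearson r = -0.056, Spearman rho = -0.31). Both are on the plus strand, printed 5′ to 3′ without any exonic bases, and the capitals mark TAATCC or its reverse complement. The matches begin 136 and 124 bases before the start of Cabp2 and 160 and 41 bases before that of Cabp5.
Cabp2, chr19:4083349-4083489: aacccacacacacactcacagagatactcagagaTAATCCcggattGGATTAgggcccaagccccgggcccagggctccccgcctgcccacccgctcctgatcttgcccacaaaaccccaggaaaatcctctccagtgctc
Cabp5, chr7:13397985-13398131: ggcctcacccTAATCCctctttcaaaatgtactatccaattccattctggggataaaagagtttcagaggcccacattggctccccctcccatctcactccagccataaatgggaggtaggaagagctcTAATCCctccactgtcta

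Necab1 was the one gene of the 10 whose groups did not overlap. It encodes an N-terminal EF-hand calcium-binding protein of neurons. The controls held 56.3, 66.4 and 63.2 CPM and the Tppp3 libraries 68.3, 68.7 and 72.5 CPM. Every Tppp3 library was above every control, but the gap between the highest control and the lowest Tppp3 library was small against the spread of the controls. One of 10 genes without overlap compares with 13.9% of all tested genes, of which 6.92% were higher and 7.02% lower. The means were 62.0 ± 5.17 and 69.9 ± 2.33 CPM (SD, n = 3 per group). The log2 fold change was 0.17 ± 0.069 (SE), with an unadjusted p of 0.0307 and an adjusted p of 0.673 in edgeR. An exact permutation test over libraries, two-sided, had p = 0.1, which is the lower limit for groups of this size.

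The Necab1 difference rested in part on control replicate 1, one of the 3 libraries with a high pigment cell level. Necab1 was at 56.3 CPM in it, but at 68.3 and 72.5 CPM in Tppp3 replicates 1 and 3, which also had a high pigment cell level. Whether that level bears on Necab1 was not tested. Without control replicate 1 the log2 fold change of Necab1 was 0.10 (unadjusted p = 0.141 and adjusted p = 0.742, edgeR). Without Tppp3 replicate 3 it was 0.14 (unadjusted p = 0.101), and with all libraries thinned to equal depth 0.16 (unadjusted p = 0.0558). The value stayed positive in all 13 alternative analyses, and its adjusted p ranged from 0.539 to 0.999. In the GENCODE M21 annotation of build GRCm38, 410 exonic bases of Necab1 overlap an antisense gene on the opposite strand, Gm11837, and the library kit does not mark strand, so reads of both cannot be told apart there. No gene row of the counts carried the name Gm11837, so its level could not be set beside that of Necab1. A single protein-coding gene, Tmem64, lies between Necab1 and Calb1 on chromosome 4, yet Calb1 showed no such offset (log2 fold change 0.0099).

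Necab2 was the most variable of the 10. Its product binds an adenosine receptor, encoded by Adora2a, and the glutamate receptor encoded by Grm5. The controls were tightly grouped at 17.6, 16.9 and 17.1 CPM, and the Tppp3 libraries held 21.8, 10.2 and 22.5 CPM. Tppp3 replicates 1 and 3 lay above every control, and Tppp3 replicate 2 lay below every control. The means were 17.2 ± 0.358 and 18.2 ± 6.90 CPM (SD, n = 3 per group), and the log2 fold change of 0.080 ± 0.32 (SE; edgeR adjusted p = 0.979) averaged over libraries that differed in direction. The fold interval was 0.603 to 1.85.

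The low Necab2 library was far outside counting error. It held 227 counts, more than the 189 to 199 of the shallower control replicates 1 and 3, and stood at 0.462 times the mean of its group mates. In that library, 0.725% of all tested genes lay lower against their group mates than Necab2 did. The SD of log2 CPM within groups was 0.45 for Necab2, larger than in 96.8% of the 1000 tested genes nearest in level, while for Calb1 it was 0.050, larger than in 19.6% of such genes. Without Tppp3 replicate 2 the log2 fold change of Necab2 was 0.37 (unadjusted p = 0.0033; adjusted p = 0.407, edgeR), and without Tppp3 replicates 1 or 3 it was -0.077 or -0.10. The call was not past the threshold with or without that library. The genes of both receptors did not pass: Grm5 averaged 29.1 ± 3.12 and 31.3 ± 3.25 CPM, and Adora2a 1.18 ± 0.448 and 1.04 ± 0.298 CPM (SD, n = 3 per group; edgeR adjusted p = 0.858 and 0.966).

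**Figure D3:**
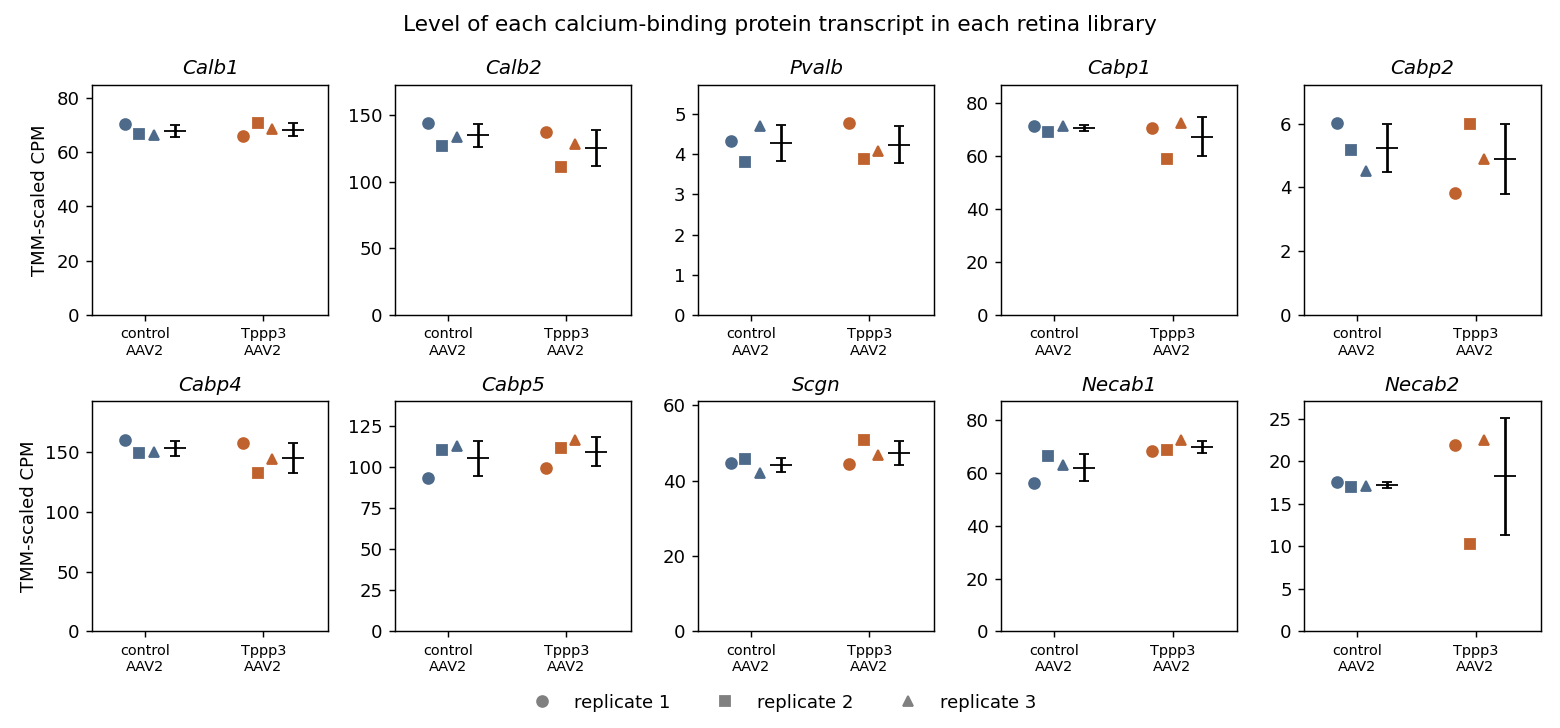
The panels give the CPM of each gene in every library (shape for the replicate number) with the group mean and SD in black; each axis starts at 0. Calb1 lies flat, Necab1 alone has groups that do not overlap, and Necab2 has 1 Tppp3 library at 10.2 CPM below the 3 controls.

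The highest and the lowest library differed from gene to gene. Tppp3 replicate 2 was the lowest of the 6 libraries for 4 genes, Calb2, Cabp1, Cabp4 and Necab2, and the highest for 2, Calb1 and Scgn. Control replicate 1 was the highest for Calb2, Cabp2 and Cabp4 and the lowest for Cabp5 and Necab1. The summed level of the 10 genes was 660 to 668 CPM in the controls and 624, 674 and 681 CPM in Tppp3 replicates 2, 1 and 3.

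Some members followed each other across the 6 libraries, which share depth and scaling, so the correlations of log2 CPM that follow are a description. Calb2 and Cabp4 were the closest pair (Pearson r = 0.97, Spearman rho = 0.94, n = 6), although their proteins mark different cells, and r was 0.91 over the 5 libraries without Tppp3 replicate 2. Cabp1 and Necab2 had r = 0.93 (rho = 0.83), but 0.55 without that library. Calb2 and Cabp1 had r = 0.86 (rho = 0.60), and 0.22 without it, so that these 2 pairs rested on Tppp3 replicate 2. Calb1 was closest to Cabp2 (r = 0.88, rho = 0.89; 0.83 without that library), and Cabp5 to Necab1 (r = 0.71, rho = 0.60; 0.69 without it). The closest genes to Scgn were Calb1 (r = 0.62, rho = 0.77) and Cabp2 (r = 0.55, rho = 0.54), at 0.29 and 0.27 without that library. Other pairs ran against each other. Scgn had r = -0.82 with Calb2 (rho = -0.71), -0.80 with Cabp1 (rho = -0.26) and -0.79 with Cabp4 (rho = -0.77), and -0.39, 0.068 and -0.35 without Tppp3 replicate 2. Cabp4 and Cabp5 had r = -0.73 (rho = -0.71), and -0.97 without that library.

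**Figure D4:**
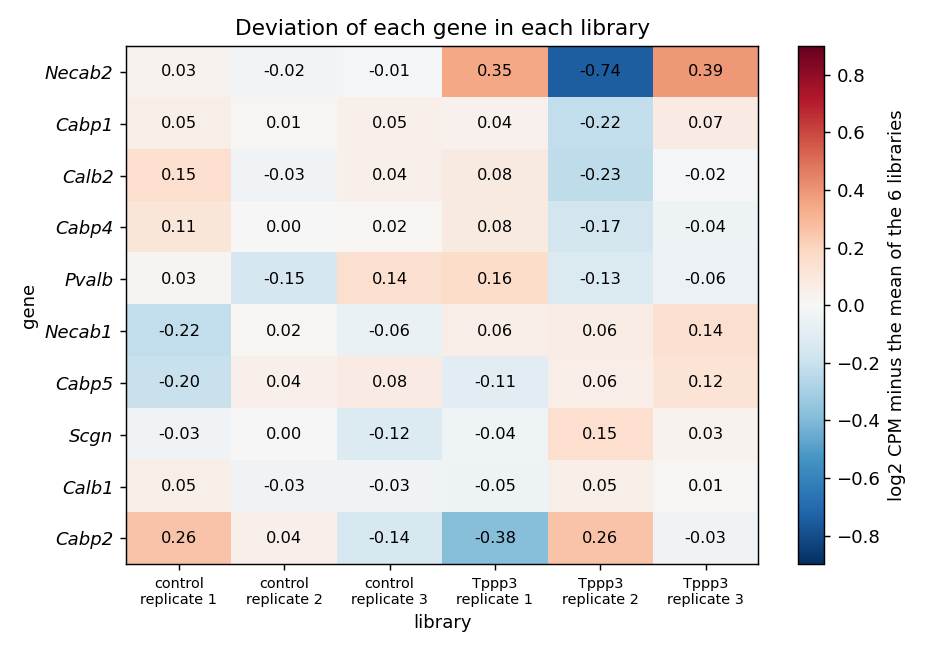
Each cell gives log2 CPM minus the mean of the 6 libraries for 1 gene (rows) in 1 library (columns), red for above and blue for below. The column of Tppp3 replicate 2 runs from -0.74 for Necab2 to 0.26 for Cabp2, while the columns of control replicates 2 and 3 stay between -0.15 and 0.14.

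Markers of retinal cell classes, among them classes known to hold these proteins, were set beside the 10 genes. The summed level of the 7 horizontal cell markers was 43.9 to 44.8 CPM in the controls and 47.1 to 50.4 CPM with Tppp3 AAV2, without overlap, whereas Calb1, the calbindin of these cells, overlapped. The 14 amacrine markers also did not overlap, at 1397 to 1431 and 1444 to 1512 CPM, whereas Calb2 overlapped with the lower mean under Tppp3 AAV2. Both sums were also free of overlap with DESeq2's size factors and with total counts as the scale. Of the 14 amacrine markers, 11 had a positive and 3 a negative log2 fold change: Chat (-0.13), Slc18a3 (-0.0058) and Th (-0.49). Of all 14750 tested genes, 7502 were positive. The 10 cone bipolar markers stood at 379.9 to 406 and 408 to 439.8 CPM. The 4 AII amacrine markers stood at 403 to 419 and 423 to 461 CPM. Both were without overlap on the TMM scale but with overlap when scaled by total counts. Sums weigh abundant genes most. Log2 CPM minus the mean of the 6 libraries, averaged over a list, weighs its genes equally. On it the amacrine groups overlapped (-0.039 to 0.025 in controls, -0.036 to 0.085 with Tppp3 AAV2), as did the cone bipolar and AII amacrine groups. The horizontal cell groups did not, at -0.12 to -0.050 and 0.0046 to 0.17. No marker of these 4 lists passed in edgeR's test; the smallest adjusted p was 0.648 among horizontal cell and cone bipolar markers and 0.661 among amacrine markers. Of the 17 marker lists, 4 were free of overlap on the TMM scale, all 4 with the higher level under Tppp3 AAV2. When scaled by total counts 2 of 17 were. Among single tested genes 13.9% were free of overlap. That share is of single genes, and no such rate was computed for summed lists. The sum of 10 ganglion cell markers was 731 to 742 CPM in the controls and 672 to 797 CPM with Tppp3 AAV2.

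**Figure D5:**
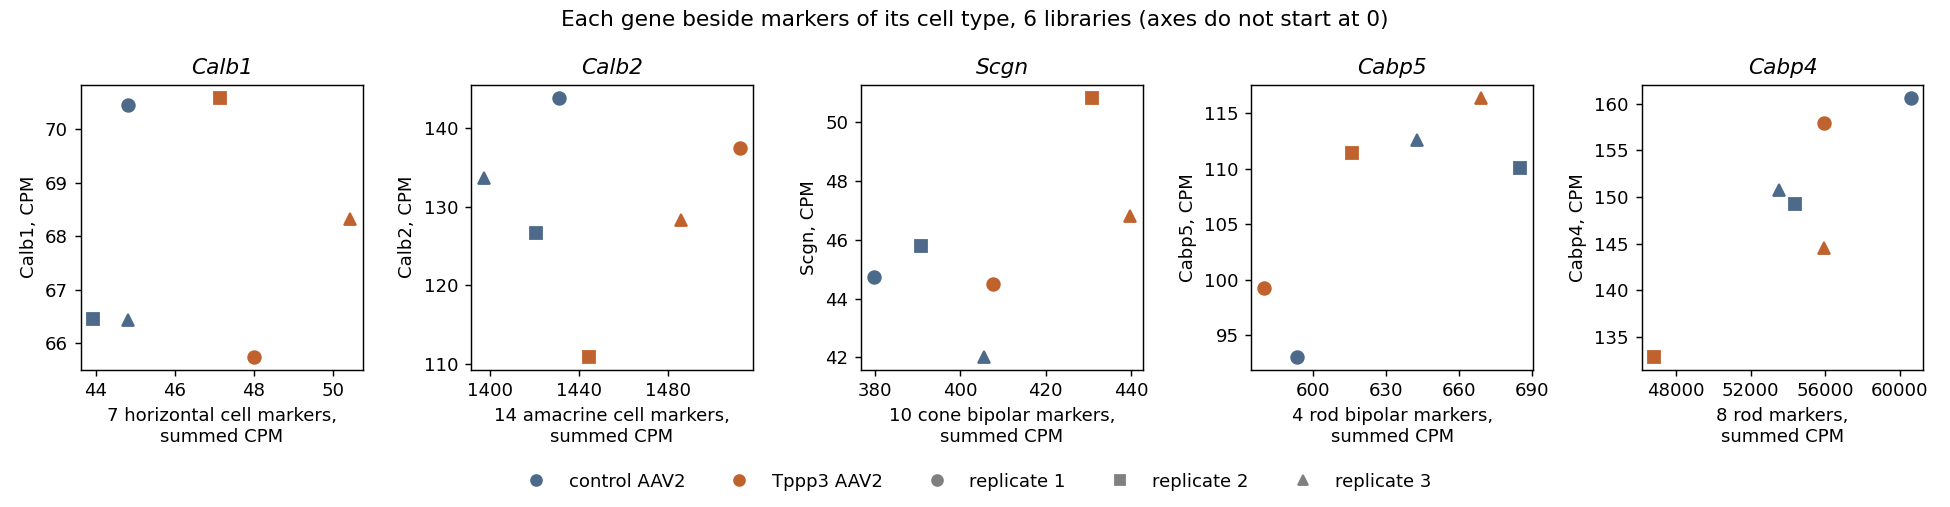
Each panel sets the CPM of 1 gene (vertical axis) against the summed CPM of markers of a cell class it is known from (horizontal axis) in the 6 libraries, with color for the group and shape for the replicate number; axes do not start at 0. Cabp5 and the rod bipolar markers are both low in the replicates numbered 1, and Cabp4 and the rod markers are both lowest in Tppp3 replicate 2.

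Other genes of calcium signalling were read from lists of further sensors, partners of the 10 proteins, and calcium removal and stores. The last list holds genes of calcium release, entry and mitochondrial uptake (Ryr1, Ryr2, Ryr3, Stim1, Stim2, Orai1 and Mcu) beside pumps and exchangers. Of 53 listed genes, 52 were tested and 0 passed in either direction in edgeR's test. In the same test 5 of the 52 had an unadjusted p under 0.05, beside 7.23% of all tested genes. Without overlap were 9 higher and 3 lower, 23.1% of the 52, beside 13.9% of all tested genes. Among 20 other EF-hand sensors the median log2 fold change was 0.012, with 13 positive. Over all 14750 tested genes it was 0.0030, with 7502 positive. The 2 of smallest p were Kcnip4, a potassium channel subunit, at 21.4 ± 1.85 and 25.2 ± 2.21 CPM (log2 fold change 0.23, edgeR adjusted p = 0.673), and Ncald, a neuronal calcium sensor, at 94.2 ± 1.20 and 102 ± 4.35 CPM (0.11, adjusted p = 0.708; SD, n = 3 per group).

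Among 14 known partners of the 10 proteins the median log2 fold change was -0.0020, with 7 positive and 7 negative. Cacna1d, the pore of the Cav1.3 channel on which CaBP proteins act, averaged 71.3 ± 3.59 and 78.6 ± 3.66 CPM (SD over 3 libraries each; log2 fold change 0.14, adjusted p = 0.682 in edgeR). Itpr3, an inositol trisphosphate receptor, was at 8.01 ± 2.22 and 6.09 ± 0.978 CPM (-0.38, adjusted p = 0.767). The list of calcium removal and stores, which mixes removal, release and entry, had 14 of 18 positive fold changes and a median of 0.082. Over all tested genes, 7502 of 14750 were positive and the median was 0.0030. Of the 18 genes, 3 were higher and 1 lower without overlap. The sodium-calcium exchanger gene Slc8a1 averaged 105 ± 3.39 and 115 ± 1.13 CPM (log2 fold change 0.13, adjusted p = 0.648), and Atp2a2, a calcium pump of the endoplasmic reticulum, 402 ± 5.40 and 436 ± 15.8 CPM (0.12, adjusted p = 0.673), each with SD over n = 3 per group and edgeR's test.

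Annotated transcripts show how far the sequence of each gene is shared with others. In GENCODE M21, 0 of the 31-base words of any of the 10 genes' transcripts was shared with another of the 10. This cannot show how the deposited reads were assigned, since the alignment and counting are not given. For Calb2, Scgn, Necab2, Pvalb and Cabp2, 0% of the words occurred in the transcripts of any other gene. The share was 0.289% for Calb1 and Cabp1 and 0.602% for Cabp5. It was 5.77% for Cabp4, whose shared words occur in Gm11594 and in Gpr152. The latter overlaps Cabp4 on the opposite strand by 131 exonic bases. For Necab1 the share was 8.26%, with words in the overlapping Gm11837 and in other genes. Gpr152 had 1143 to 2113 counts per library, against 1668 to 3108 for Cabp4, so some reads in the shared stretch may have been counted for either gene. Cabp2 and Cabp4 lie near each other on chromosome 19, with 4 protein-coding genes between them.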

How the data were processed

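Poly(A)-selected RNA of whole retina was sequenced as paired reads of 150 bases, per the labels' protocols. The authors deposited unnormalized total counts for each gene symbol and library, per the file headers. Build GRCm39 (mm39) is named in the submitters' processing notes. How reads were aligned, counted and assigned to a strand is not given in the sources used here. Columns were used where their name matched a sample title, which gave 6 libraries; 1 further value column, whose header names it as Tppp3 replicate 4, matched no sample and was not used, and the fourth control sample was not analysed here. Groups follow the sample labels, with 4 controls and 3 Tppp3 samples, although the protocol text gives these numbers the other way round.

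Of 25655 genes, 14750 passed edgeR's expression filter by group. TMM scaling, a robust quasi-likelihood F test (two-sided, Benjamini-Hochberg over all tested genes, threshold 0.05) and 95% intervals from the moderated degrees of freedom were used; the fit was tested on simulated data. Log2 CPM had a prior count of 2. Lengths came from GENCODE M21 (GRCm38) and are of another build than the counts. All 10 genes are named, and of each of the 3 calcium gene lists the 2 genes of smallest p with a mean of at least 1 CPM; partner genes beside a member were named after their values were seen. The members and lists were chosen with earlier results of these data known. Alternatives were DESeq2's Wald test, its size factors within edgeR, voom of limma with sample weights, other low-count filters, thinning to equal depth, a replicate block and leaving out each library. The tools were edgeR 4.0.16, DESeq2 1.42.0 and limma 3.58.1 in R 4.3.3, and matplotlib 3.10.9 in Python 3.11.15.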

Additional observations from a re-analysis of the deposited data

How the results depend on the processing

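Each result was recomputed under 13 alternatives, of which 6 leave out 1 library. The count of called genes among the 10 was 0 higher and 0 lower in all 13. Over all genes, 2 were lower and 0 higher; DESeq2's Wald test gave 12 lower and 2 higher, no low-count filter 6 lower, and voom, thinning to equal depth and the replicate block 1 lower each. Leaving out 1 library at a time gave 0 to 1 lower and 0 to 2 higher. The median log2 fold change of the 10 genes was 0.0012, and it lay between -0.043 and 0.030 in those 6 fits. Same-numbered libraries did not deviate together (r = -0.029, 0.051 and -0.26 over all tested genes for numbers 1, 2 and 3), so the numbers were not treated as pairs; with the replicate block the median was -0.0054. Of 130 fold changes of single genes, 115 kept their sign and stayed short of the threshold, and 15 changed sign. Pvalb was at 0.017 with voom, at 0.00065 and 0.064 without control replicates 1 and 3, and at 0.054 and 0.019 without Tppp3 replicates 2 and 3. Calb1 was at -0.0044 and -0.0039 without control replicates 2 and 3 and at -0.015 without Tppp3 replicate 2, and at most at 0.035. Cabp2 was at 0.011 without control replicate 1 and 0.054 without Tppp3 replicate 1, and Cabp5 at -0.033 and -0.00053 without control replicate 1 and Tppp3 replicate 3, with 0.11 as its highest value. For Cabp2 the omissions spanned -0.26 to 0.054 and for Pvalb -0.10 to 0.064. Cabp1 was at 0.020 without Tppp3 replicate 2, its lowest value being -0.12, and Necab2 at -0.077 and -0.10 without Tppp3 replicates 1 and 3 and at 0.37 without Tppp3 replicate 2. Correlations without Tppp3 replicate 2 were chosen after seeing the data. Pvalb and Cabp2, at 133 counts or fewer per library, are limited by depth, and 3 libraries per group limit every interval.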
